A study of Mus musculus with 18 samples.

Results

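Harringtonine stops ribosomes that have just begun translation, so that footprints gather at start sites. For every gene and strand the deposited position with the most harringtonine reads, summed over 6 libraries, was taken as the gene's main position. Main positions were thus chosen by measured reads, and their high counts are a description. Only positions with at least 20 reads in the sum of the 3 untreated libraries and at least 20 in the sum of the 3 tunicamycin libraries could be chosen. This gave 3858 main positions (1960 forward, 1898 reverse) among 9025 deposited positions in 4613 genes; 755 genes had no position above both minimums, and no gene had a main position on both strands. The choice used the summed reads and the 2 minimums, and the difference between treatments was not a criterion. The choice is still not independent of treatment, since a sum can favour a position that is high in a single treatment. The tunicamycin libraries held more reads and so weighed more in the sum. The highest position differed between the summed treatments in 318 of 1749 genes with at least 2 positions above both minimums.

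The cells were erythroblasts from fetal liver of FVB/n x C57BL/6 mice with the genotype Trp53 -/-, a background that every group shared. They grew in StemPro with Epo at 0.5 U/ml, SCF as 1% supernatant and dexamethasone at 1 nM. Either they were left untreated or they received tunicamycin at 2.5 ug/ml for 1.5 h, which the series design gives as a way to induce phosphorylation of eIF2. Each treatment had 3 samples of harringtonine footprints (2 ug/ml), 3 of cycloheximide footprints (100 ug/ml, 5 min) and 3 of total RNA, 18 samples in 6 groups. Separate cultures or animals are not named for the 3 samples within a group, so a p-value reflects the spread among these samples, which may be technical. In bulk samples, fewer cells of a type and less RNA per cell cannot be told apart.

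A ribosome is loaded at a start codon by initiator methionyl-tRNA, which eIF2 brings to the small subunit. Stress kinases phosphorylate eIF2, which lowers the supply of this complex for most mRNAs, while some mRNAs with short upstream reading frames, such as Atf4, go on being translated or are translated more. A footprint begins some bases upstream of the codon in the ribosomal P site, so a position that marks the start of a read lies upstream of its start codon. Most start codons are ATG, and codons that differ from it by 1 base, CTG above all, are used at some sites.

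Of 13 erythroblast markers, 12 had a main position, among them the globin genes Hbb-bs, Hbb-bt, Hba-a1 and Hba-a2, the haem synthesis gene Alas2, the transcription factor genes Gata1 and Klf1, the surface protein genes Tfrc, Epor and Slc4a1, and Car2. Of the markers of macrophages (6), neutrophils and monocytes (6), megakaryocytes (5), mast cells (3) and endothelium and stroma (5), 0 had one, and of 4 hepatocyte markers only Apoa1 did, with 53 reads. The macrophage markers summed to 1.245 to 2.245 CPM of RNA (counts scaled to 1000000 per library) over the 6 RNA libraries, with C1qa and C1qb at 0. The megakaryocyte markers summed to 113 to 119.3 CPM untreated and 94.36 to 103.8 under tunicamycin, of which Gp5 alone gave 106 to 110 and 86.7 to 96.8, with Ppbp at 0. Itga2b overlapped (4.18 to 5.28 and 4.66 to 5.33). The mast cell markers summed to 103.6 to 167.7 and 106.3 to 170.4, of which Ms4a2 alone gave 102 to 165 and 104 to 167. Of the other mast cell markers, Cpa3 stood at 1.82 to 2.94 and 2.08 to 3.33, and Mcpt8 reached at most 0.023. In coding footprints the megakaryocyte markers summed to 196.8 to 252.8 CPM untreated and 162.2 to 165.7 under tunicamycin (Gp5 195 to 248 and 157 to 161). The hepatocyte markers summed there to 2.47 to 3.307 and 5.702 to 6.84 CPM, nearly all of it Apoa1 (edgeR adjusted p = 0.0314), with Alb and Ttr at 0. Apoa1 had 144 coding footprint reads over 6 libraries. Its call was lost without tunicamycin library 2 or 3 or untreated library 1, 2 or 3 (edgeR adjusted p = 0.0631 to 0.146). The part of these markers in other results was not tested. The count table listed the 4 globin genes at 0 reads in RNA and in coding footprints, although Hbb-bs had the most harringtonine reads of any position.

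The sequences below show how main positions lie relative to a start codon. They are RefSeq windows of the build GRCm38.p6, printed from the main position onward on the strand of the gene and cut at 30 bases or at the end of the window, with ATG in capitals. Hist1h2ag and Hist1h2af, which encode histone H2A, and Rps6, a protein of the small ribosomal subunit, were named by the rule for the highest positions. The others were chosen after their values were seen: Rhag encodes a red-cell membrane protein of the Rh complex, Hist1h2be a histone H2B, Eif3g a subunit of initiation factor 3, Atp5b the beta subunit of ATP synthase, Hist1h3i a histone H3 and Hist1h4d a histone H4.
Hist1h2ag (chr13:22042911-22042940, reverse): tttaatctttacaATGtctggacgcggcaa
Hist1h2be (chr13:23585940-23585969, reverse): aagagatctgaagATGcctgagccagccaa
Rhag (chr17:40811163-40811192, forward): ctctgctgcagtcATGaggttcaaattccc
Hist1h2af (chr13:23533899-23533924, forward): aaggtacctacaATGtctggacgcgg
Eif3g (chr9:20898546-20898575, reverse): taagacttcgagATGccgactggcgacttt
Atp5b (chr10:128083315-128083344, forward): ccggattccgccATGttgagtcttgtgggg
Rps6 (chr4:86857318-86857335, reverse): tgtgtcaagATGaaggta
Hist1h3i (chr13:21783348-21783377, reverse): tactgagATGgctcgtactaagcagaccgc
Hist1h4d (chr13:23581598-23581617, forward): taacATGtctggacgcggga
In the first 3 the ATG begins 13 bases downstream of the main position, in the next 3 it begins 12 bases downstream, and in Rps6, Hist1h3i and Hist1h4d it begins 9, 7 and 4 bases downstream. Hist1h2ag and Hist1h2af print the same bases from the ATG onward as far as both are shown, tctggacgcgg, since H2A genes are near-identical copies, and reads that fit several copies make single histone counts uncertain.

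The windows span 250 bases before to 50 bases after each annotated transcript start, so only main positions close to a start could be read. Of the 3858 main positions, 3846 matched a RefSeq gene by symbol or synonym and 3788 lay within that gene's span. Of 3192 with windows on their strand, 3101 lay downstream of an annotated start, at a median genomic distance of 146 bases (quartiles 68 and 791), introns included, and 2369 of these (76.4%) lay within 1000 bases. In a window lay 607 main positions, 483 after the start of the window used and 124 before it. Where several windows held a position, the window whose start lay furthest downstream was used. Some of the 124 therefore lie after another annotated start of the gene. Those positions before every annotated start, and those whose window is spliced just after the position, are read here on the genome and not on the mRNA. So are bases searched upstream of a position that lie before the annotated start or across a splice.

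An ATG began 13 bases downstream in 80 of 429 main positions readable there (18.6%), against 1.21% of all 32851 windows at the same places. It began 12 bases downstream in 45 of 444 (10.1%, against 1.22%). At 11 bases it began in 0 of 453 and at 14 bases in 1 of 415, so the ATG stood at 1 of 2 neighbouring distances and seldom beside them. The motif ATG was searched on the strand of the gene only. Positions that were deposited but were not main had an ATG at 13 bases in 39 of 405 (9.63%) and at 12 bases in 45 of 405 (11.1%), beside 79 of 422 (18.7%) and 45 of 422 (10.7%) for the main positions that could be read over the same stretch. The 2 kinds of position can come from the same gene, and the difference was not tested.

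Upstream of 12 bases the ATG recurred every 3 bases. It began 10 bases downstream of the main position in 14, 7 bases downstream in 27, 4 bases downstream in 20 and 1 base downstream in 23, and further up, before the main position itself, 2 bases upstream in 17, 5 in 20 and 8 in 21. Each of these distances shares the reading frame of the 13-base distance. Of 277 ATGs that began from 20 bases upstream to 10 bases downstream, 172 (62.1%) were in that frame, 85 (30.7%) in the frame of the 12-base distance and 20 (7.22%) in the third. A main position in this ladder lies at a whole number of codons past the place where a ribosome on the ATG would put it.

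**Figure D1:**
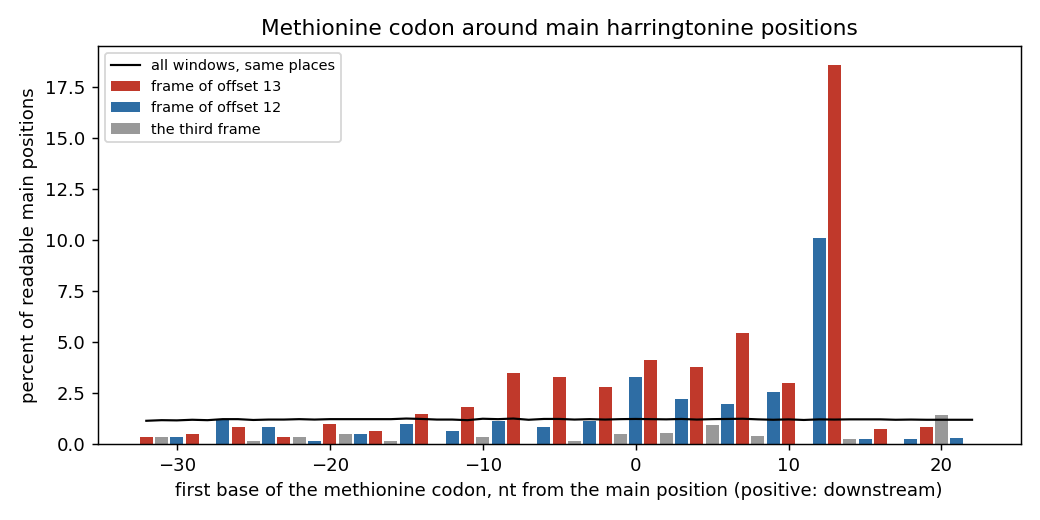
Share of readable main positions (y axis, percent) at which an ATG begins at each distance from the position (x axis, nt, positive downstream), coloured by reading frame, with the share in all windows at the same places as a line. The bars peak at 13 nt (18.6%) and 12 nt (10.1%) and recur every 3 nt upstream of the peak, against a line near 1.21%.

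Of the 422 main positions readable from 20 bases upstream to 13 bases downstream, 124 (29.4%) had the ATG at 12 or 13 bases. A further 111 (26.3%) had it upstream of that in the frame of 13, 48 (11.4%) in the frame of 12 and 5 (1.18%) in the third frame, and 134 (31.8%) had none in the stretch. The reads of these classes overlapped widely, with medians of 193.5 reads per position for an ATG at 12 or 13, 149 and 236.5 for the upstream frames and 124 where no ATG was found. At the 124, the base 3 before the ATG was a purine in 104 (83.9%), against 60.4% of 19914 ATGs in the transcribed part of all windows. The base after the ATG was G in 73 of 122 (59.8%), against 34.8%. Those 2 places are the core of the Kozak context, the surroundings of a start codon that favour its use.

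Where no ATG was found, a codon 1 base away from it often stood at 13 bases. Of the 134, CTG stood there in 26 (19.4%, against 2.78% of all windows), GTG in 12 (8.96%, against 1.86%), TTG in 8 (5.97%, against 1.41%) and ACG in 7 (5.22%, against 0.595%). Over all readable main positions, with or without an ATG, CTG stood at 13 bases in 7.46%. Its share at other distances varied, with 0.723% at 14 bases but 6.09% at 19 and 5.84% at 25. The examples below, with that codon in capitals, were chosen after their values were seen. Rnf187 encodes a RING finger protein, Pgd an enzyme of the pentose phosphate pathway, Tfpi an inhibitor of coagulation and Epor the erythropoietin receptor, the receptor on which these cells depend.
Rnf187 (chr11:58938858-58938887, reverse): tctgagtcgtaggCTGaggctcgtcggcct
Pgd (chr4:149166053-149166082, reverse): agctgacattgcaCTGatcggactggctgt
Tfpi (chr2:84476720-84476749, reverse): tctgcacacgtgaGTGataaagtccttcct
Epor (chr9:21963527-21963543, reverse): tgctgacccagctGTGg
A match of these letters is a description of the sequence and does not show that the codon starts translation. At Pgd the main position lay 0 bases from the annotated start, so the bases searched upstream of it are genome before that start. An ATG that the Pgd mRNA carries there would be missed, and its CTG may then be a codon inside the reading frame. The main position of Epor lay at chromosome 9, position 21963543, with 187.1, 107.5 and 135.0 rpm (reads scaled to 1000000 at deposited positions per library) untreated and 203.7, 143.2 and 123.6 under tunicamycin, and held 57.88% of that gene's kept reads. Rnf187 had 534.5, 340.4 and 419.5 rpm untreated and 624.8, 422.5 and 323.3 under tunicamycin. The treatments overlapped at both.

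Main positions often had a second position beside them. Of 4286 other positions in the same genes, 2847 (66.4%) lay downstream of the main position and 1439 (33.6%) upstream. The base directly downstream held 766 of them and the base directly upstream 51. The next base downstream held 55. From 3 to 8 bases downstream the counts were 17, 26, 7, 4, 17 and 2, with the higher ones at 3, 4 and 7 bases. Upstream, 14 lay at 3 bases, 7 at 6 and 3 at 9, with 0 at 4, 5, 7 and 8. Beyond 15 bases no such steps were seen, with 6, 5, 20, 11 and 13 at 16 to 20 bases downstream. The neighbour 1 base downstream was present at 22 of 79 main positions with the ATG at 13 bases (27.8%) and at 1 of 45 with the ATG at 12 (2.22%). The neighbour 1 base upstream was present at 0 of the 79 and at 2 of the 45. A neighbour 1 base downstream of a position that lies 13 bases before an ATG lies 12 bases before the same ATG.

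**Figure D2:**
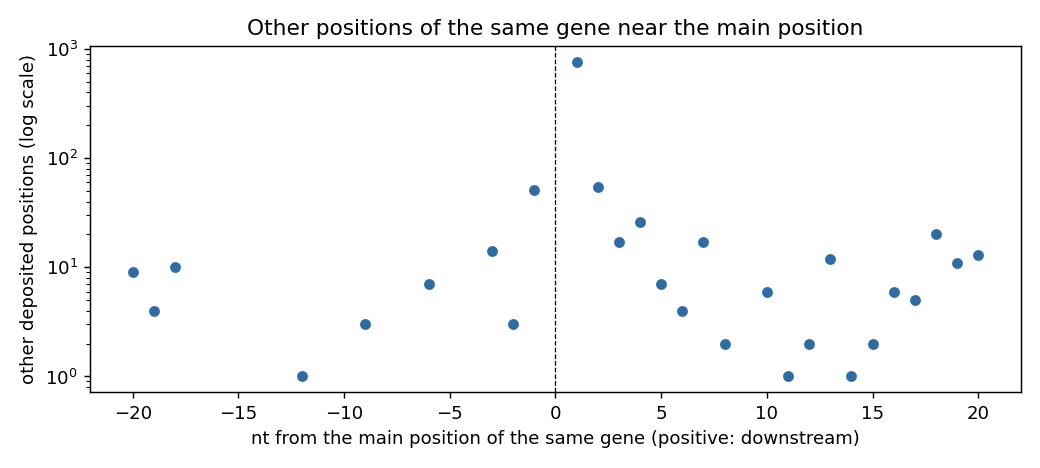
Number of other deposited positions of the same gene (y axis, log scale) at each distance from the main position (x axis, nt, positive downstream), for distances up to 20 nt that held any. The point 1 nt downstream stands at 766 and the point 1 nt upstream at 51.

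The main position was the only deposited position in 1635 genes (42.4%). A further 1200 genes (31.1%) had 2 positions, 545 (14.1%) had 3 and 478 had 4 or more, up to 20 in Hsp90aa1, a cytosolic chaperone gene. The main position held a median of 59.4% of the kept reads of the 2223 genes with at least 2 positions (quartiles 49.2 and 71.6), from 11.2% in Hsp90aa1 to 97.8% in Hist1h4f, and less than 50% in 580 genes. Its reads were a median of 1.86 times those of the next position. In 393 genes the next position came within 1.2 times, and in 271 it was more than 5 times lower. In 9 genes the first place was a tie.

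Which position was highest depended on the library about as much within a treatment as between treatments. Of 1749 genes with at least 2 positions above both minimums, 893 (51.1%) had the same highest position in all 6 libraries. Between the summed treatments it differed in 318 (18.2%). Between 2 single libraries of the same treatment it differed in a median of 23.9% of genes (6 pairs, 20.8 to 28.4%), and between 2 libraries of different treatments in a median of 23% (9 pairs, 21.2 to 30.1%). In 17 genes the 3 libraries of each treatment shared a highest position that differed from the other treatment's, with the first in file taken on ties, and in 14 of them no library held a tie between the 2 positions. The one with the most reads, singled out after its values were seen, was Bcap31, which encodes an ER membrane protein. Its 2 highest positions lay 1 base apart and had 192, 234 and 242 against 168, 183 and 235 reads untreated, and 242, 195 and 254 against 274, 272 and 309 under tunicamycin.

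Reads per main position spanned a wide range. The summed reads ran from 40 to 266981 with a median of 137 (quartiles 75 and 336), and the 10 highest main positions held 20.2% of all kept reads. Main positions held 2514758 of 3249536 reads at deposited positions (77.4%). Per library the share was 77.4, 77.9 and 77.8% untreated and 76.7, 77.5 and 77.3% under tunicamycin, a difference of -0.568 percentage points (2-sided exact permutation p = 0.2, smallest possible 0.1). Within numbers it was lower in 3 of 3 pairs, by -0.715, -0.479 and -0.51 points (2-sided exact sign-flip permutation p = 0.25, the smallest that 3 pairs allow). The labels do not give this pairing, and among harringtonine libraries only number 1 correlated best with its own number. Kept reads came to 523868, 446561 and 481525 untreated and 648169, 558625 and 590788 under tunicamycin. They are the reads at deposited positions and not the depth of the libraries. Levels in rpm are relative to them, and a fold change is the log2 of tunicamycin over untreated with its standard error (SE). Just inside the minimum stood Mid1ip1, Mmp14 and Mtfp1, with 20 reads in each treatment. Just outside stood 1700017B05Rik, with 20 untreated and 19 under tunicamycin, and Bcas2 and Ift20, with 19 and 20.

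The highest main position was that of Hbb-bs, an adult beta-globin gene, at chromosome 7, position 103827864 on the reverse strand. It had 81458, 94108 and 95218 rpm untreated and 78191, 77882 and 71506 under tunicamycin, so the untreated libraries were all higher (log2 -0.25 ± 0.15 SE, edgeR adjusted p = 0.999). Its near-identical neighbour Hbb-bt had 4398, 5047 and 8818 rpm untreated and 4559, 5082 and 5953 under tunicamycin, and reads that fit both genes make each value uncertain. Btf3, which encodes the beta subunit of the nascent chain-associated complex, stood second at chromosome 13, position 98316874, with 20461, 25374 and 18767 rpm untreated and 19862, 22774 and 21805 under tunicamycin. These overlapped almost fully (log2 -0.00 ± 0.18). Mt1, a metallothionein gene, had 14777, 17872 and 16302 against 14672, 20273 and 17776 rpm. Cfl1, the gene of the actin-severing protein cofilin, had 10025, 10008 and 9605 against 9192, 10605 and 8946 rpm. Rps6 and Rpl35, of the small and large ribosomal subunits, and Hist1h1d, a linker histone, were also among the 10 highest, each with overlapping treatments. Hist1h2ae, Hist1h2ag and Hist1h2af completed the 10, each with every tunicamycin library above the untreated ones.

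**Figure D3:**
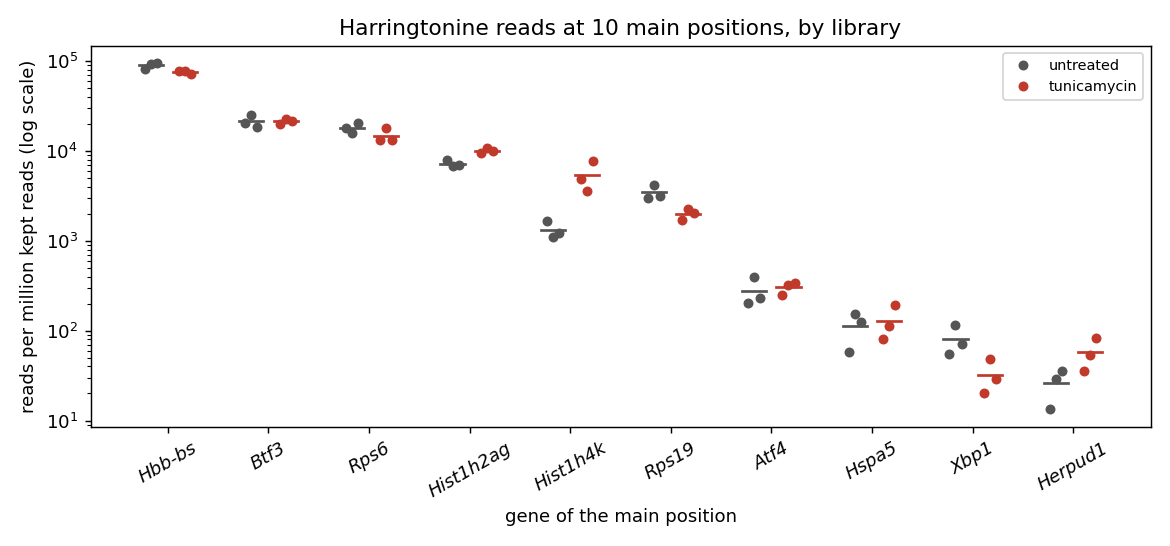
Level in rpm (y axis, log scale) at 10 main positions (x axis) in each of 3 untreated and 3 tunicamycin libraries, with the mean of each group as a bar. Hist1h4k, Hist1h2ag and Herpud1 show every tunicamycin library above the untreated ones, Hbb-bs, Rps19 and Xbp1 show the reverse, and Btf3, Rps6, Atf4 and Hspa5 overlap.

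Whether tunicamycin changed the reads at these positions was asked by comparing the 3 tunicamycin with the 3 untreated harringtonine libraries over every deposited position. Most main positions lay outside the windows read for a start codon, so their reads need not be initiation. Of 3405 main positions that passed the filter on low counts, 0 passed an edgeR adjusted p of 0.05, as did 0 of all 5843 positions tested (0%). At an unadjusted p under 0.05 stood 104 main positions (3.05%), against 3.61% of all positions. DESeq2 called 1 and limma voom 0. Same-numbered harringtonine columns deviated together, weakly for numbers 2 and 3, and with the number as a block 4 main positions passed (3 higher and 1 lower, against 0.0856% and 0.0171% of all positions, 0.103% in either direction). The remaining 453 main positions were too low to test. The median SE of a main position's log2 change was 0.39 (quartiles 0.32 and 0.46), and 0.26 for the 340 with at least 1000 reads, so modest changes were not detectable for most. The minimum in each treatment also limits how far a position with few reads can differ.

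Hist1h4k, a histone H4 gene, had the smallest p. Its only deposited position, at chromosome 13, position 21750253 on the reverse strand, had 1672, 1106 and 1213 rpm untreated and 4841, 3598 and 7812 under tunicamycin. The lowest tunicamycin library lay above the highest untreated one (log2 2.03 ± 0.29, edgeR adjusted p = 0.0585). It passed with the replicate block (edgeR adjusted p = 5.95e-08) and by DESeq2 (9.96e-06), and without tunicamycin library 1, 2 or 3 (edgeR adjusted p = 0.00709, 0.0208 and 0.0433), but not without untreated library 1, 2 or 3 (0.0833, 0.818 and 0.999), where the log2 change was 2.25, 1.93 and 2.00. Its coding footprints were at a log2 change of 0.11 ± 0.10 (edgeR adjusted p = 0.631). The next smallest p values belonged to Hist1h1b, a linker histone gene (13.36, 11.2 and 16.61 against 29.31, 39.38 and 86.33 rpm), and Rps15, a small-subunit protein gene (36.27, 17.91 and 43.61 against 91.03, 62.65 and 96.48 rpm), both with an edgeR adjusted p of 0.999.

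The block added 3 further positions. Hist1h4m had 17.18, 17.91 and 43.61 rpm untreated and 49.37, 59.07 and 186.2 under tunicamycin, with library 3 the highest in each treatment (log2 1.91 ± 0.55, blocked edgeR adjusted p = 0.0163). Hist1h2bf, a histone H2B gene, had 19.09, 0 and 22.84 against 77.14, 46.54 and 54.16 rpm (2.05 ± 0.61, blocked 0.0318 by edgeR). A position 200 bases upstream of it was the higher one in each untreated library (18, 4 and 12 against 10, 0 and 11 reads). That position was the lower one in each tunicamycin library (13, 18 and 8 against 50, 26 and 32). The main position of Hist1h2bf was thus chosen through its tunicamycin reads, and its rise is not independent of that choice. Lars2, the mitochondrial leucyl-tRNA synthetase gene, had 131.7, 44.79 and 1159 against 52.46, 44.75 and 116.8 rpm (-2.61 ± 0.85, or -1.80 with the block, blocked 0.0185 by edgeR). The treatments overlapped at Lars2, where untreated library 3 alone stood high, and the value without it was -0.28.

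**Figure D4:**
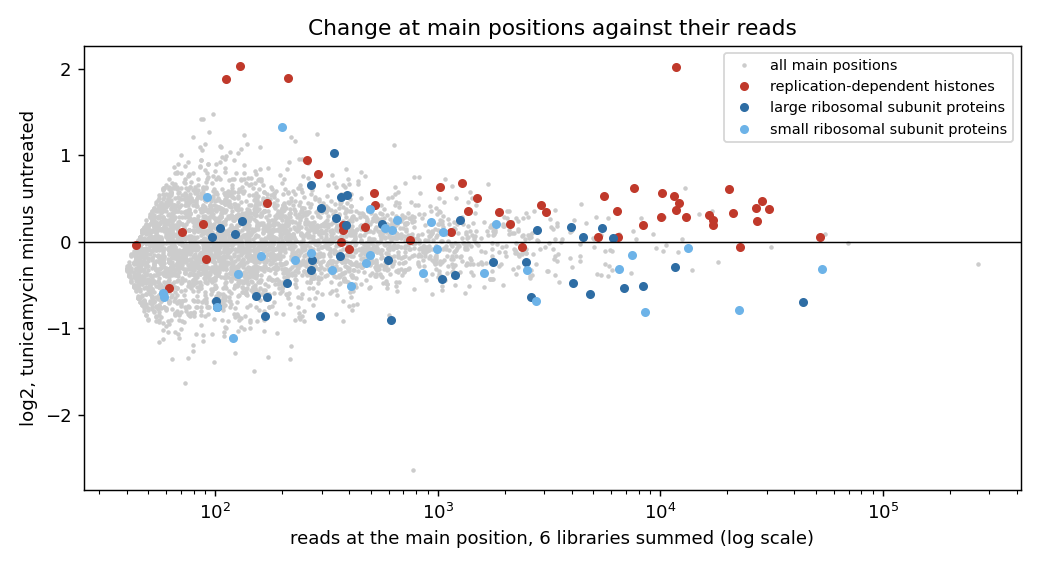
Log2 difference, tunicamycin minus untreated (y axis), of every main position against its reads summed over 6 libraries (x axis, log scale), with histone and ribosomal protein genes coloured. Most histone points lie above 0, the points spread less at high reads, and Hist1h4k is the high histone point at 11717 reads.

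Histones package DNA, and the replication-dependent histone genes are made in S phase as many near-identical copies. Of 66 listed, 53 had a main position. In 17 of the 53 (32.1%) every tunicamycin library was above every untreated one and in 0 every one was below, while over all main positions these counts were 154 (3.99%) and 167 (4.33%) and over all deposited positions 6.23% and 5.06%. These shares are not matched for reads: histone main positions had a median of 2378, against 137 over all main positions. Near-identical copies can also share reads, so the 53 are not separate measurements. The median log2 change was 0.34, against -0.05 over all main positions, and 0 passed the edgeR test one by one. The 17 came from each family: 5 of 12 H2A, 3 of 14 H2B, 3 of 10 H3, 4 of 12 H4 and 2 of 5 H1. Hist1h2bf, among the 17, was chosen as main through its tunicamycin reads. Hist1h1b and Hist1h4m, also among the 17, were each chosen among 4 positions with most of their reads from tunicamycin libraries. Their rises are not independent of the choice either. Earlier results on these data already showed histone footprints higher under tunicamycin, so this list is not independent support.

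Summed over the 53, histone main positions held 116289, 109143 and 114794 rpm untreated and 136114, 135533 and 161755 under tunicamycin, and without Hist1h4k 114617, 108037 and 113581 against 131273, 131935 and 153944. The groups did not overlap either way. Leaving out any 1 library gave 17 to 28 histone positions with all tunicamycin libraries higher (32.1% to 52.8%, the most without tunicamycin library 1) and at most 1 lower. Over all main positions the same comparisons of 5 libraries gave 6.82% to 9.77% higher and 9.05% to 10.4% lower. Among the highest, Hist1h2ae had 8998, 7795 and 7202 rpm untreated and 11897, 9282 and 10291 under tunicamycin (log2 0.39 ± 0.19, edgeR adjusted p = 0.999). Hist1h2ag had 7933, 6884 and 6943 against 9516, 10857 and 9922 (0.48 ± 0.18), and Hist1h2af 8531, 6725 and 7393 against 9032, 9065 and 8947 (0.26 ± 0.18). The linker histone Hist1h1d overlapped, with 14616, 17895 and 14302 against 14593, 14847 and 19892 rpm. Of 20 histone main positions that could be read, 7 had the ATG at 12 or 13 bases, 10 had it upstream in the frames of 12 (4) or 13 (6) and 3 had none. The main position was the only one in 25 of the 53 histone genes.

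Ribosomal protein genes, whose mRNAs begin with a pyrimidine tract that couples them to growth signals, lay on the other side of 0. Of 48 large-subunit genes 41 had a main position, with a median log2 change of -0.21, 2 higher in every tunicamycin library and 4 lower. Of 33 small-subunit genes 32 had one, with a median of -0.23, 1 higher and 3 lower. None passed, and these shares without overlap (4.88% and 9.76%, 3.12% and 9.38%) stand beside 3.99% and 4.33% over all main positions. Leaving out 1 library gave 4 to 9 lower large-subunit positions (9 without untreated library 3 or tunicamycin library 1, 22%) and 3 to 6 higher. It gave 4 to 8 lower small-subunit positions (8 without untreated library 2 or tunicamycin library 2, 25%) and 1 to 4 higher. Over all main positions the same comparisons of 5 libraries gave 9.05% to 10.4% lower and 6.82% to 9.77% higher. Large-subunit positions summed to 47040, 45694 and 33477 rpm untreated and 35269, 36359 and 24874 under tunicamycin, which overlapped, although the tunicamycin library was the lower one within each number. Small-subunit positions summed to 46678, 42722 and 46700 against 32816, 41155 and 31998 rpm, which did not overlap. A few positions held much of these sums. From untreated to tunicamycin, Rps6 had means of 18214 and 14806 rpm and Rps15a of 8917 and 5210. In the large subunit, Rpl35 had means of 16862 and 10503 rpm. At each of these genes the treatments overlapped, and the sums without them were not taken. Rps19, mutated in Diamond-Blackfan anaemia, had 2995, 4248 and 3155 rpm untreated and 1691, 2272 and 2023 under tunicamycin (log2 -0.80 ± 0.23, edgeR adjusted p = 0.999, blocked 0.0881). Rpl23a had 215.7, 253.0 and 292.8 against 137.3, 166.5 and 108.3 rpm, and Rpl10a 131.7, 141.1 and 91.38 against 58.63, 89.51 and 54.16. Rpl6 went the other way, with 66.81, 44.79 and 87.22 against 125.0, 139.6 and 143.9 rpm. For several of these genes the footprint table held few reads, 41 for Rps6 and 25 for Rpl35 over 6 libraries beside 83312 and 91671 RNA reads, so the 2 footprint readouts cannot be set side by side there.

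**Figure D5:**
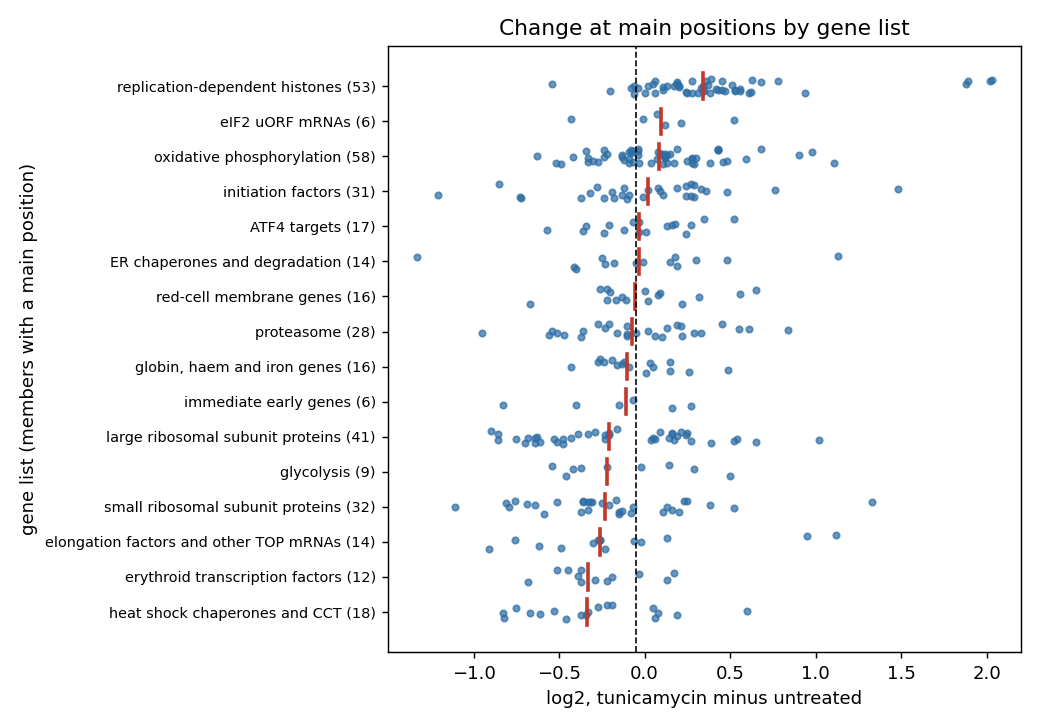
Log2 difference, tunicamycin minus untreated (x axis), of each main position in 16 gene lists (y axis, number of members with a main position in brackets), with the list's median as a red bar and the median of all main positions as a dashed line. Histone genes have the highest median (0.34), and ribosomal proteins (-0.21 and -0.23) lie left of the dashed line at -0.05.

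Initiation factors had main positions on both sides of 0. Of 37 of these genes 31 had one, with a median of 0.02, 3 higher (9.68%) and 2 lower (6.45%), beside 3.99% and 4.33% over all main positions. Eif3b, the scaffold subunit of initiation factor 3, had 108.8, 109.7 and 76.84 rpm untreated and 26.23, 57.28 and 45.7 under tunicamycin (log2 -1.20 ± 0.36, edgeR adjusted p = 0.999). Eif1ax encodes a factor that helps the small subunit scan. It had 22.91, 11.2 and 10.38 against 27.77, 32.22 and 67.71 rpm (1.49 ± 0.50, edgeR adjusted p = 0.999). The main position of Eif1ax was chosen among 2 positions with most of its reads from tunicamycin libraries (18, 18 and 40, against 12, 5 and 5 untreated). Its rise is therefore not independent of that choice. Of 15 elongation factors and other mRNAs with the pyrimidine tract, 14 had a main position (median -0.26, 1 higher, 7.14%, and 0 lower). Npm1, a nucleolar chaperone gene, had 169.9, 87.33 and 78.92 against 611.0, 71.6 and 55.86 rpm, with 1 library high.

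Atf4, the transcription factor gene whose upstream reading frames let its translation rise when eIF2 is phosphorylated, had its main position at chromosome 15, position 80255668 on the forward strand. It had 206.2, 398.6 and 230.5 rpm untreated and 251.5, 324.0 and 341.9 under tunicamycin. The treatments overlapped (log2 0.14 ± 0.31, edgeR adjusted p = 0.999) and the position held 65.9% of the gene's kept reads. Its coding footprints rose by a log2 change of 2.18 ± 0.11 (edgeR adjusted p = 2.33e-08). The place of the main position relative to the coding start or an upstream one is not shown here. Its reads therefore do not show whether initiation at the coding start of Atf4 changed. Of 18 genes listed for upstream reading frames and eIF2, 6 had a main position, with a median of 0.10. In this list 1 was higher (16.7%) and 0 lower, beside 3.99% and 4.33% over all main positions. Ddit3 and Ppp1r15a had no deposited position, and Ifrd1 had one but none above both minimums. Pnrc2, a nuclear receptor coactivator gene, had 446.7, 662.8 and 749.7 against 391.9, 406.4 and 590.7 rpm, while its coding footprints rose by 0.99 ± 0.16 (edgeR adjusted p = 0.00472). The place of that position relative to a start codon is not shown here either. Slc7a1, an arginine transporter gene, had 49.63, 64.94 and 70.61 against 108.0, 84.14 and 74.48 rpm (0.53 ± 0.32, edgeR adjusted p = 0.999).

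Main positions of ER stress genes lay on both sides of 0. Of 29 genes for ER chaperones and degradation 14 had a main position, with a median of -0.03. In this list 1 was higher and 1 lower (7.14% each), beside 3.99% and 4.33% over all main positions. Herpud1, of ER-associated degradation, had 13.36, 29.11 and 35.3 rpm untreated and 35.48, 53.7 and 82.94 under tunicamycin (log2 1.15 ± 0.45, edgeR adjusted p = 0.999), while its RNA rose by 1.36 (edgeR adjusted p = 5.93e-05). Xbp1, whose mRNA is spliced by IRE1 under ER stress, had its main position at chromosome 11, position 5524850 on the forward strand. It had 55.36, 116.4 and 70.61 against 20.06, 48.33 and 28.78 rpm (-1.32 ± 0.42, edgeR adjusted p = 0.999). Its place relative to a start codon is not shown here, so the fall need not be one of initiation. The coding footprints of Xbp1 rose by 0.56 ± 0.12 (edgeR adjusted p = 0.0184). Each of the 5 fits without cycloheximide tunicamycin library 2 or 3 or untreated library 1, 2 or 3 ended that call (edgeR adjusted p = 0.0514 to 0.114). Hspa5, the gene of the chaperone BiP, overlapped, with 57.27, 154.5 and 124.6 against 81.77, 112.8 and 191.3 rpm. Of 33 ATF4 target genes 17 had a main position (median -0.03, 1 higher and 1 lower, 5.88% each). Wars, a tRNA synthetase gene, was the lower one, with 169.9, 176.9 and 118.4 against 92.57, 111.0 and 113.4 rpm.

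Erythroid genes mostly overlapped between treatments. Of 25 globin, haem and iron genes 16 had a main position (median -0.10), with Hbb-bs the 1 lower (6.25%) and 0 higher. Over all main positions 4.33% were lower and 3.99% higher. Of 20 red-cell membrane genes 16 had one (median -0.05) and of 19 erythroid transcription factor genes 12 (median -0.33), with 0 higher and 0 lower in either list. Gata1, the master regulator of the lineage, had 1058, 642.7 and 620.9 rpm untreated and 805.3, 628.3 and 379.2 under tunicamycin (log2 -0.35 ± 0.31, edgeR adjusted p = 0.999). Urod, of haem synthesis, had 832.3, 454.6 and 596.0 against 445.9, 603.3 and 362.2 rpm. Trp53, the deleted gene by its label, had a main position with 74.45, 107.5 and 159.9 against 111.1, 116.4 and 162.5 rpm. The labels do not say which part of the gene is deleted, so these reads do not check them.

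The other lists gave similar counts. Of 78 oxidative phosphorylation genes 58 had a main position (median 0.09), with 4 higher (6.9%) and 3 lower (5.17%). Over all main positions 3.99% were higher and 4.33% lower. Ndufb3, a complex I subunit gene, had 683.4, 508.3 and 577.3 against 455.1, 465.4 and 326.7 rpm. Of 36 proteasome genes 28 had one (median -0.07, 1 higher and 1 lower, 3.57% each). Psmb8, an immunoproteasome subunit gene, was higher, with 68.72, 96.29 and 112.1 against 123.4, 143.2 and 143.9 rpm, and Psma6 lower, with 437.1, 340.4 and 375.9 against 299.3, 239.9 and 250.5. All 18 genes of heat shock chaperones and the CCT complex had one (median -0.34, 0 higher and 1 lower, 5.56%). The lower one was Tcp1, a CCT subunit gene (169.9, 112.0 and 137.1 against 95.65, 84.14 and 57.55 rpm). Of 16 glycolysis genes 9 had one (median -0.22, 0 without overlap). Of 23 immediate early genes 6 had one (median -0.11, 1 higher, 16.7%, and 0 lower). Myc overlapped, with 1506, 835.3 and 1049 against 1699, 1117 and 1009 rpm, and Ier2 was higher, with 131.7, 145.6 and 159.9 against 174.3, 195.1 and 164.2.

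Whether the main position took another part of its gene's reads under tunicamycin was tested against the gene's other positions. Of 2223 genes with at least 2 positions, 0 passed by edgeR (0% of those tested), with 107 (4.81%) at an unadjusted p under 0.05, and 0 passed with the replicate block.

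Genes with a main position had more coding footprints than other genes did. Of these genes, 3792 were listed in the deposited counts and 66 were not. Their median untreated coding footprints were 82.4 CPM, against 7.94 CPM for 8353 other genes with footprints, and 812 of the 1000 genes with the most coding footprints had a main position (81.2%), against 18.3% of all genes in the table. Across genes, untreated reads at the main position ranked with coding footprints at a Spearman rho of 0.31, with leader footprints at 0.38 and with RNA at 0.36. These are correlations across genes, which are not independent replicates and differ in length.

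In coding footprints 117 of 3679 genes with a main position rose and 32 fell by edgeR, against 1.78% and 0.799% of all 9265 genes tested (2.58% in either direction). Leaving out 1 library moved this total of 149 to between 41 (without untreated library 2) and 254 (without tunicamycin library 1). Of the 117, 31 were histone genes. The main positions of the 117 had a median log2 change of 0.11, with 75 above 0, and without histones 0.02, with 47 of 86 above 0. Those of the 32 had a median of -0.10, with 9 above 0, against 44.6% above 0 over all main positions. Across genes the 2 changes had a Pearson r of 0.09. The ATP synthase-associated gene Usmg5, chosen here after its values were seen, rose by 1.51 in coding footprints (edgeR adjusted p = 0.00072), while its main position had 1080, 1771 and 1360 rpm untreated and 1237, 1411 and 2568 under tunicamycin. In RNA 12 of 3749 genes with a main position rose and 0 fell by edgeR, against 0.15% and 0% of all 10643 genes tested, and with the replicate block 221 passed, against 3.85% of all genes tested (2.66% higher and 1.19% lower). Leaving out untreated library 2 or 3 or tunicamycin library 2 or 3 left a count of 2. The main positions of the 12 had a median change of 0.25, with 9 above 0. Among them, named from the result, were Herpud1, Trib3, Hspa5, Txnip, Polr2a, Dync1h1, Tpr, Prpf8, Polr1a, Iqgap1 and Ier2.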

How the data were processed

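Harringtonine, cycloheximide and total RNA libraries of untreated and tunicamycin-treated erythroblasts were used as deposited. The deposited files hold raw read counts by the authors, per single position and strand for harringtonine and per gene feature for the other assays. The builds mm10 and GRCm38 and the tools STAR, HTSeq and edgeR are listed per the submitters' processing notes. Versions, multi-mapping rules and how a read was given 1 position are not stated there. Harringtonine column names give the treatment but match no single sample, so they were used as groups of 3, and column number as replicate number. Depth limits precision: kept harringtonine reads per library lay between 446561 and 648169, and counts carry no molecular identifiers.

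Positions were fitted together in R 4.3.3 with edgeR 4.0.16 (TMM, filterByExpr with minimum count 10 and minimum total 15, glmQLFit, glmQLFTest, Benjamini-Hochberg over all positions or genes tested, threshold 0.05). Every adjusted p without another tool's name comes from this test. List medians come from the same fit without the filter, so that each main position has a value. The main position's share was tested as the interaction of part (main or other positions) and treatment, with the library as a term. Alternatives were DESeq2 1.42.0, limma 3.58.1 voom, other scaling, no filter, a minimum of 50, positions merged within 10 nt, a threshold of 0.01, the replicate block and leaving out each library. Fits were tested on simulated data. Same-numbered harringtonine libraries deviated together from their group means (r = 0.5207, 0.1519 and 0.1291 over 5843 positions), as did RNA libraries (0.4155, 0.3122 and 0.1908), and were taken as pairs from these data. Among harringtonine libraries only number 1 correlated best with its own number.

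The named genes were the 10 highest main positions, the 3 smallest p values (none passed), positions passing with the block, those nearest the minimum, fixed genes (Atf4, Ddit3, Ppp1r15a, Ifrd1, Hspa5, Trp53) and in each list the members of smallest p, 4 at most. Members and lists were chosen with earlier results of these data known. Sequences are from RefSeq, GRCm38.p6, and no genome sequence was used here. Single values of some genes are not reported here.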

Additional observations from a re-analysis of the deposited data

How the results depend on the processing

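The count of main positions passing in the harringtonine comparison was 0 with edgeR, 1 by DESeq2 and 4 with the replicate block, 0 to 1 when 1 library was left out, and 0 under the other alternatives run. Genes passing in coding footprints numbered 149, 277 with no filter and 508 with the replicate block (against 9.55% of all genes tested), and 41 to 254 when 1 library was left out (254 without tunicamycin library 1, 71 without 2 and 43 without 3, 75 without untreated library 1, 41 without 2 and 130 without 3). Same-numbered coding footprint libraries deviated together less evenly (r = 0.3482, 0.09426 and 0.2767 over 9265 genes), each correlating best with its own number, and share only a number. In RNA 12 passed, 65 by DESeq2, 53 with no filter, 221 with the replicate block, and 2 to 17 when 1 library was left out (2 without tunicamycin library 2 or 3 or untreated library 2 or 3). The cause of these differences was not tested. The share test gave 0 under every alternative run, and the share of reads at main positions differed by -0.563 points at a minimum of 50 (exact permutation p = 0.2) and -0.247 without the 10 highest genes (0.6), and with the replicate block by -0.568 (exact permutation p = 0.25), chosen after seeing the data. Of 1178 values of named genes under harringtonine alternatives, 1135 kept their call or, with none, lay within 1 SE of the main value, 35 moved further and 8 gained a call; of 688 in coding footprints, 624 did so, 16 moved, 21 gained and 27 lost a call; of 722 in RNA, 681, 25, 10 and 6. The block changed no other call of a named main position than those given. The histone and ribosomal protein counts without each library were chosen after seeing the data, and fewer libraries overlap less by construction. The precision of a change at a main position is limited by its reads.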
